A study of Mus musculus with 10 samples.

Results

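The genes described are 10 transcription factors of skeletal muscle formation: Myod1, Myf5, Myf6, Myog, Mef2a, Mef2c, Mef2d, Pax3, Pax7 and Srf. They were taken by symbol from the gene column of a table of 27968 rows, and each of the 10 matched 1 row that carried no other gene name. The table compares tumours that embryonic fibroblasts formed after injection beneath the skin of immune-compromised mice. They are labelled RAS/DNP53, that is with RAS and a dominant-negative p53, and their strain is given as C57BL/6. The authors' heading of the comparison reads RAS-G12VDNP53, which names the G12V mutant of RAS. In 3 tumours, whose labels carry 2 cell numbers, cyclin D1 was tagged, and in 2 tumours, with 2 other cell numbers, it was wild type. The labels give HA-siRNA for each of them, applied by the rectal route, so no group went without it. Dosing began at a tumour size of 500 mm3, ran 5 times per day, and ended 30 minutes before the animals were killed. Runs of both sequencing dates in the labels served each group. The animals' age is not stated. The tumours were dissected whole and can hold cells of the host, and each tumour was sequenced on 2 lanes, which gave 10 samples.

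Abundance is tabulated once per condition, as C1 and as C2, and no source used here says which of the 2 is the tagged one. Each direction given is therefore that of C2 relative to C1. The values are read as FPKM (fragments scaled to transcript length and to the library's total), as the Cuffdiff layout of the table implies. FPKM is per length, so levels can be set side by side between genes. No values per tumour exist in it, so there is no SD, the depth is unknown, and how far its p and q (the p adjusted for all tested rows) reflect the spread between tumours, rather than between lanes, is also unknown. A gene was called at q under 0.05, which 7.12% of the 16681 tested rows met, 2.92% as lower and 4.20% as higher in C2. At q under 0.01 it was 4.21%, made up of 1.57% lower and 2.64% higher. Ccnd1, the gene of cyclin D1, had 161 FPKM for C1 against 243 FPKM for C2, per the authors' deposited table and was not called (q = 0.218).

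As background, the MyoD family (Myod1, Myf5, Myf6 and Myog) are basic helix-loop-helix proteins that pair with E proteins and bind E-boxes. Myod1 and Myf5 commit cells to the muscle lineage, Myog drives their differentiation, and Myf6, also called MRF4, is the family member that prevails in mature fibres. The MEF2 proteins and SRF are MADS-box factors. MEF2 proteins act with the MyoD family on muscle genes and also work in heart, endothelium, neurons and B cells, while SRF, present in most cells, binds CArG boxes in actin and immediate early genes. Pax3 and Pax7 mark muscle precursors, Pax7 above all the satellite cells of adult muscle. Fibroblasts are not a muscle lineage, and Myod1 is known for its power to turn cultured fibroblasts into muscle.

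Promoter windows from RefSeq on build GRCm38.p6 (250 bases before to 50 bases after an annotated start) matched 7 of the 10 genes. The other 3, Myod1, Myf6 and Pax3, had no entry. Mef2c had 3 windows, which made 9 in all. These windows were searched for the E-box (CANNTG), the MEF2 site (YTAWWWWTAR) and the CArG box (CCWWWWWWGG). In these patterns N is any base, Y is C or T, W is A or T and R is A or G. Each pattern reads the same on both strands, and no matches of different motifs overlapped in the printed windows. The windows of Myog, Mef2a and Srf are shown because they hold the binding letters of 3 of the families described. Capitals mark the E-boxes in Myog, the MEF2 site in Mef2a and the CArG boxes in Srf, and each is printed 5′ to 3′ on the gene's strand.
Myog, chr1:134289754-134290053, plus strand: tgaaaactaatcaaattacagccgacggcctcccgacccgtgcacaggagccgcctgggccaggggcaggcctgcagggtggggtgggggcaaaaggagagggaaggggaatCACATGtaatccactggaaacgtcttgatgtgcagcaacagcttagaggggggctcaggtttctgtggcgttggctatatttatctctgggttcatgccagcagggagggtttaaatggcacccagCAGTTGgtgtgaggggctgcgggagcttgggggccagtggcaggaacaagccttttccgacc
Mef2a, chr7:67372809-67373108, minus strand: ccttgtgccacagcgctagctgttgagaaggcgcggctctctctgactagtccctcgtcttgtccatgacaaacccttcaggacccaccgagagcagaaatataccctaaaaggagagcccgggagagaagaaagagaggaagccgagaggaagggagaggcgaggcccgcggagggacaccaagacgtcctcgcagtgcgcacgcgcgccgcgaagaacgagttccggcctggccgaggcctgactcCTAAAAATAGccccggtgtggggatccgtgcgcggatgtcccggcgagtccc
Srf, chr17:46556113-46556412, minus strand: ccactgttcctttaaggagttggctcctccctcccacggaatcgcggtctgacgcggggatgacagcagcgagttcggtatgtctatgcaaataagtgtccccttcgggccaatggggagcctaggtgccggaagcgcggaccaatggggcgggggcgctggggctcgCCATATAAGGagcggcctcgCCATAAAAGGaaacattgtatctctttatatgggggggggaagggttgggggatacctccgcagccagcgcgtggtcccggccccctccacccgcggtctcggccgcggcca

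With the annotated start base as position 1 and the base before it as -1, the 2 E-boxes of Myog began at -138 and -12, the MEF2 site of Mef2a at -2 and the 2 CArG boxes of Srf at -82 and -62. Among the other windows, the first of Mef2c held 2 E-boxes and the last held 1, and those of Myf5, Mef2d and Pax7 held none of the 3 motifs. An E-box was found in 3 of these 9 windows and in 72.3% of the 32851 promoter windows of the same length. A MEF2 site was found in 1 of 9, against 3.19% of all windows, and a CArG box in 1 of 9, against 1.63%. Only full matches to a pattern were counted. The run ctatatttat in the Myog window departs from the MEF2 pattern in its last letter alone and was therefore left out. A match is only a run of letters, and none of the windows was measured in the tumours. The windows lie on a later build than the table, and which start a tumour used is not in it.

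**Figure D1:**
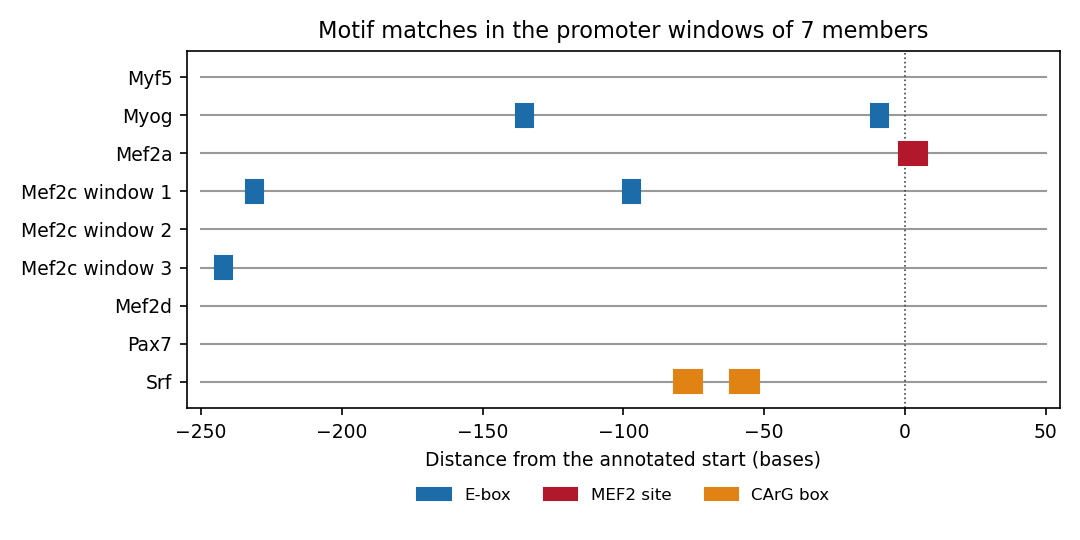
Motif matches in the 9 promoter windows of 7 genes, drawn to scale by distance in bases from the annotated start (dotted line). Blue blocks are E-boxes, red the MEF2 site and orange the CArG boxes. The E-boxes of Myog begin at -138 and -12 and the CArG boxes of Srf at -82 and -62.

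Of the 10 factors, 3 were called lower in C2 (Myf6, Mef2c and Mef2a) and 0 higher. Another 3 were tested and not called (Myog, Mef2d and Srf). The remaining 4 (Myod1, Myf5, Pax3 and Pax7) carried Cuffdiff's mark for no test, which it gives to rows with too few reads. At an unadjusted p under 0.05 there were 4 lower, Myog being the fourth, and 0 higher. The share called lower among all tested rows was 2.92%, but the members were not drawn at random from those rows.

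**Figure D2:**
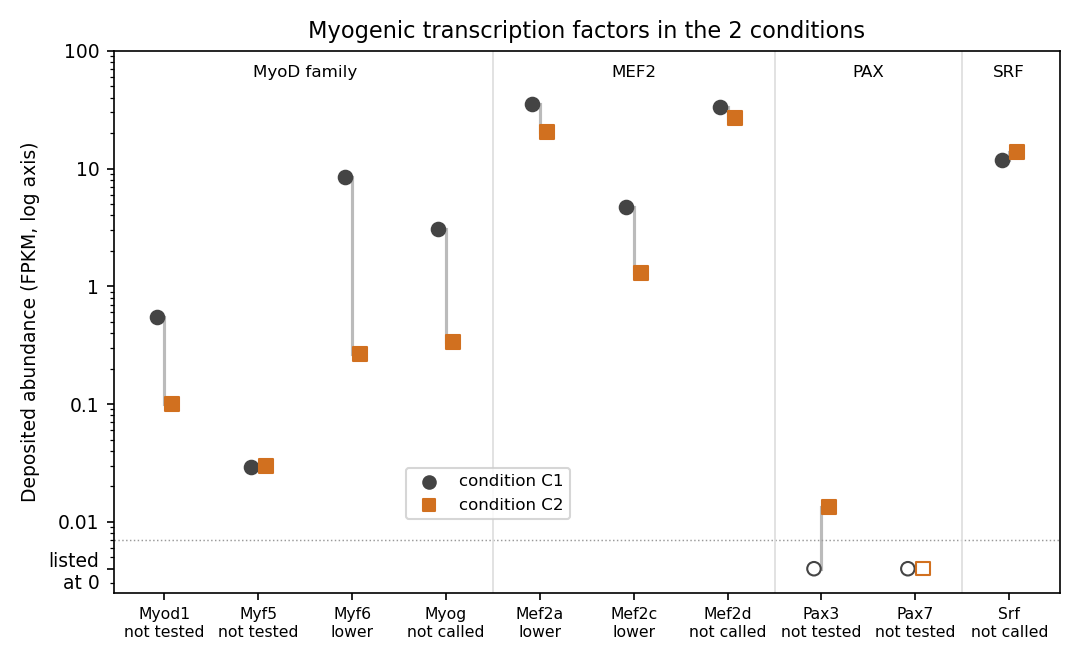
Deposited abundance of each factor in C1 (dark circles) and C2 (orange squares), in FPKM on a log axis, with 1 value per condition and no error. Open symbols below the dotted line are values listed at 0. Myf6 spans 8.48 to 0.268 FPKM, while the 2 values of Mef2d and of Srf lie close together and Pax7 is at 0 in both.

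Within the MyoD family the fibre factor Myf6 had the highest level in C1. Myf6 (XLOC_002547, chromosome 10, 106929915 to 106931785 on MGSCv37) had 8.48 FPKM for C1 against 0.268 FPKM for C2, per the authors' deposited table. Its level was 31.6-fold lower in C2 (log2 ratio -4.98), and the authors' deposited table gives p = 0.00075 and q = 0.0154 for it. Counted from the lowest ratio, Myf6 was number 28 of the 16634 tested rows with values above 0 in both conditions. With a pseudocount of 1 FPKM the log2 ratio was -2.90, since the value in C2 is small. In C1 the gene sat in the middle of the tested rows, 47.5% of which had a lower level, and in C2 only 1.29% had one.

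Myog, the differentiation factor, was lower by value and just missed the threshold. Myog (XLOC_000396, chromosome 1, 136186580 to 136189125 on MGSCv37) had 3.05 FPKM for C1 against 0.336 FPKM for C2, per the authors' deposited table. That is 9.09-fold (log2 ratio -3.18), for which the authors' deposited table gives p = 0.00425 and q = 0.0569. When only rows with a gene name entered the Benjamini-Hochberg adjustment, the value was 0.0497, so the call turns on which rows are counted. A ratio of this size was often not called, since 52 of the 163 tested rows with a ratio as low as that of Myog were. With a pseudocount of 1 FPKM its log2 ratio was -1.60.

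The determination factors had low values and were not tested. Myod1 (XLOC_021868, chromosome 7, 53631843 to 53634462) had 0.549 FPKM for C1 against 0.101 FPKM for C2, per the authors' deposited table, and it was not tested. The log2 ratio of these values was -2.44, and -0.49 with a pseudocount of 1 FPKM. For Myf5 (XLOC_002546, chromosome 10, 106919963 to 106923190) the authors' deposited table gave 0.0291 FPKM in C1 and 0.0297 FPKM in C2, also without a test. Myf5 lies 6.72 kb from Myf6 on the same chromosome, and of the pair only Myf6 was measured at a level that Cuffdiff tested. In C1, 0.336% of the tested rows had a level below that of Myf5 and 3.49% a level below that of Myod1.

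The summed FPKM of the MyoD family was 12.1 in C1 and 0.735 in C2. Myf6 made up 70.0% of that sum in C1 and 36.5% in C2. Myog made up 25.2% and 45.7%, and Myod1 4.53% and 13.8%. Shares in C2 rest on values of at most 0.336 FPKM per gene, and no error can be given for them. In bulk tumours, fewer cells of a type and less RNA per cell cannot be told apart.

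**Figure D3:**
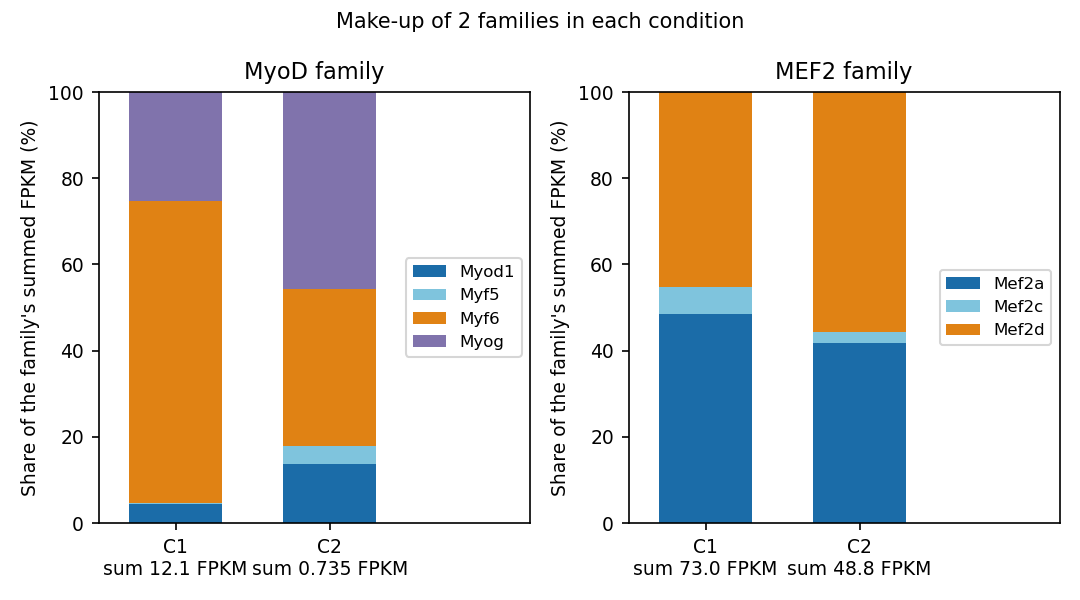
Share of each gene in the summed FPKM of the MyoD family (left) and of the 3 MEF2 genes (right), in percent, for C1 and C2. Each sum is written under its bar. Myf6 holds 70.0% of the MyoD family sum in C1, and Mef2c holds 6.48% of the MEF2 sum in C1 and 2.67% in C2.

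Mef2a and Mef2d had higher levels than any gene of the MyoD family, Mef2c stood below Myf6 in C1, and 2 of the 3 MEF2 genes were called lower in C2. Mef2c (XLOC_006148, chromosome 13, 83643032 to 83806684 on MGSCv37), required for heart and vessel formation as well as muscle, had 4.73 FPKM for C1 against 1.30 FPKM for C2, per the authors' deposited table. It fell 3.63-fold (log2 ratio -1.86), and the authors' deposited table gives q = 0.00167 for it. Its p of 5.00e-05 is the smallest the authors' deposited table holds, shared by 500 rows, so the table cannot rank the gene among them.

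Mef2a, a MEF2 gene of many tissues, had the smallest change of the 3 that were called. Mef2a (XLOC_022976, chromosome 7, 74376054 to 74518102 on MGSCv37) had 35.3 FPKM for C1 against 20.4 FPKM for C2, per the authors' deposited table. It fell 1.73-fold (log2 ratio -0.79), and the authors' deposited table gives p = 0.00185 and q = 0.0302 for it. The call is lost where a change of at least 2-fold is also asked for. Myog, with a far larger ratio and a far lower level than Mef2a, was not called, so size of ratio and call part ways among these genes.

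Mef2d (XLOC_015397, chromosome 3, 87946316 to 87981707 on MGSCv37) had 33.0 FPKM for C1 against 27.1 FPKM for C2, per the authors' deposited table. Its log2 ratio of -0.28 was not called (q = 0.710 in the authors' deposited table). The row of 1700113A16Rik covers all 35392 bases of the Mef2d row. It had 0.109 FPKM for C1 against 1.12 FPKM for C2, per the authors' deposited table, far below the level of Mef2d. Whether reads were divided between them was not tested. By sum, the 3 MEF2 genes went from 73.0 to 48.8 FPKM, a log2 ratio of -0.58. Mef2a and Mef2d together carried nearly all of this level in either condition, while Mef2c made up 6.48% of it in C1 and 2.67% in C2. Of tested rows, 79.5% had a level below Mef2a in C1, 78.3% below Mef2d and 35.6% below Mef2c.

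SRF, the factor of this set with the broadest use, did not pass the test. Srf (XLOC_010876, chromosome 17, 46683787 to 46693111 on MGSCv37) had 11.9 FPKM for C1 against 13.7 FPKM for C2, per the authors' deposited table. The log2 ratio was 0.20 with q = 0.843 in the authors' deposited table, which does not show that the conditions were alike. It was the only tested factor of the 6 with a higher value in C2.

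The precursor factors were at or next to 0. Pax3 (XLOC_000876, chromosome 1, 78097841 to 78193711) was listed at 0 for C1 and at 0.0133 FPKM for C2, per the authors' deposited table. Pax7 (XLOC_017930, chromosome 4, 139293995 to 139388883) was listed at 0 in both conditions. Neither was tested, and no fold is given against a value of 0.

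By level, the order in C1 was Mef2a, Mef2d, Srf, Myf6, Mef2c, Myog, Myod1 and Myf5, with Pax3 and Pax7 at 0. In C2 it was Mef2d, Mef2a, Srf, Mef2c, Myog, Myf6, Myod1, Myf5 and Pax3, with Pax7 at 0. Mef2a and Mef2d changed places at the top, and Myf6 moved from above Mef2c to below Myog. With no values per tumour, it cannot be said which neighbours in these orders differ beyond their spread.

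**Figure D4:**
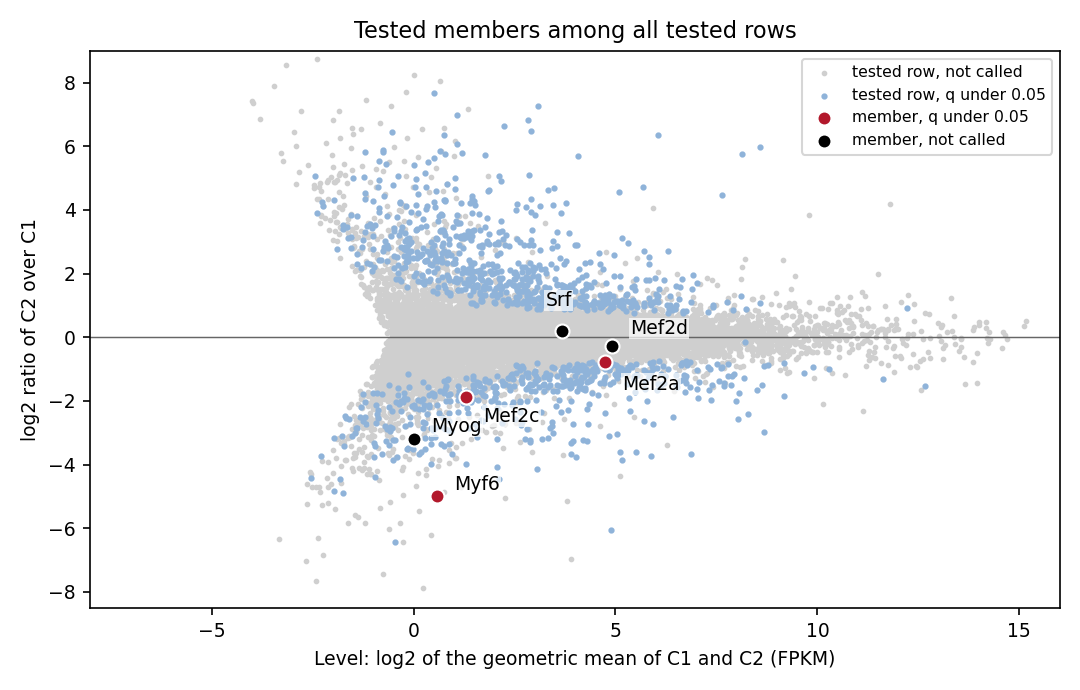
The 6 tested factors among all tested rows with values above 0, by level (log2 of the geometric mean of both conditions, in FPKM) and log2 ratio of C2 over C1. Blue rows have q under 0.05 and grey rows do not. Myf6, Mef2c and Mef2a (red) were called, and Myog, Mef2d and Srf (black) were not, although Myog has a log2 ratio of -3.18.

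The next question was how the partners of these factors stood. E proteins, the partners that MyoD family proteins need to bind DNA, were abundant and not called. Tcf3 was at 38.7 and 44.1 FPKM, Tcf12 at 55.5 and 61.7 FPKM and Tcf4 at 41.4 and 29.6 FPKM in C1 and C2 in the authors' deposited table, so Tcf4 was the lower one by value in C2 (log2 ratio -0.48). Of the 17 E proteins and E-box competitors, 16 were tested, of which 5 were called higher in C2 and 0 lower (0 also at an unadjusted p under 0.05). The median log2 ratio was 0.11, against 0.05 over all tested rows. Of all tested rows, 4.20% were called higher and 2.92% lower, and these shares apply beside the counts of the later lists too.

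All 5 genes called higher in that list code for proteins known to restrain bHLH factors or muscle differentiation. Apart from the E proteins the list was made up of such competitors, so this trait comes from how it was built. Bhlhe41, a repressor that occupies E-boxes, rose from 1.47 to 11.3 FPKM per the authors' deposited table (q = 0.00167). Hey1, a Notch target and repressor, rose from 4.34 to 31.4 FPKM by the authors' deposited table. Mdfi, which binds MyoD family proteins and holds them from the nucleus, rose from 3.04 to 11.5 FPKM per the authors' deposited table. Id2, which lacks a basic region and ties up E proteins, rose 3.00-fold, and Bhlhe40 had a log2 ratio of 1.31. The restraining genes did not move as a block, since Id1 (a row joined with H13), Id3, Twist1, Twist2, Hes1, Snai1 and Zeb1 were not called, with log2 ratios between -0.51 and 0.07, nor was Id4 (0.71). Musculin, the repressor Msc, had 0.434 against 0.182 FPKM (C1 against C2) per the authors' deposited table and was not tested.

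Upstream of the MyoD family, the protein of Six4 binds DNA and those of the Eya genes act as coactivators. Of 17 listed upstream genes 10 were tested, 1 was called higher and 0 lower, with a median log2 ratio of -0.56. At an unadjusted p under 0.05, 3 were lower (Eya1, Eya4 and Dmrt2). Eya2 rose from 0.206 to 7.31 FPKM per the authors' deposited table (q = 0.00950), and its log2 ratio of 5.15 was 2.78 with a pseudocount of 1 FPKM. Its relative Eya1 had 12.8 against 6.13 FPKM (C1 against C2) per the authors' deposited table and was not called (q = 0.0556), though a Benjamini-Hochberg adjustment over named rows puts 1 gene of this list past the threshold as lower. Six4 was not called, with a log2 ratio of -0.05. Lbx1, Pitx3 and Fgfr4, genes of migrating precursors and myoblasts, reached at most 0.0970 FPKM in the authors' deposited table and were not tested.

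The list of MEF2 and SRF partners and corepressors also holds TEAD factors, their cofactors and Mef2b. It showed 1 call among 21 tested of 23, where 7.12% of all tested rows were called in either direction. Vgll3, a TEAD cofactor, fell from 3.80 to 1.58 FPKM per the authors' deposited table (q = 0.0470). No gene was called higher, and the median log2 ratio was -0.20. At an unadjusted p under 0.05, 0 were higher and 4 lower (Vgll3, Smyd1, Elk3 and Mamstr). The SRF coactivators Mkl1 and Mkl2 had log2 ratios of 0.38 and 0.07, and the heart and smooth muscle coactivator Myocd had 0.00910 against 0.0274 FPKM (C1 against C2) per the authors' deposited table, without a test. The class II histone deacetylases Hdac4, Hdac5, Hdac7 and Hdac9, which hold MEF2 proteins in check, were not called and had log2 ratios from -0.54 to 0.28. Smyd1, a muscle methyltransferase, had 1.09 against 0.183 FPKM (C1 against C2) per the authors' deposited table (q = 0.0594). Mef2b, the MEF2 gene outside the set, had 0.106 against 0.0486 FPKM (C1 against C2) per the authors' deposited table and was not tested.

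Downstream, the genes of the contractile fibre were lower in C2 as a group. Of 38 listed sarcomere and excitation genes, 1 symbol had no row and 2 (Myh1 and Myh4) shared one, leaving 36 rows, which were all tested. All 36 had lower values in C2, 22 were called lower and 0 higher (27 and 0 at an unadjusted p under 0.05), and the median log2 ratio was -3.07. Their summed level was 1828 FPKM in C1 and 190 FPKM in C2. The fast-fibre calcium sensor Tnnc2 fell from 136 to 9.35 FPKM and the alkali light chain Myl1 from 59.5 to 4.39 FPKM per the authors' deposited table. Creatine kinase Ckm and titin, Ttn, had log2 ratios of -3.74 and -3.86. Of the 14 rows not called, 13 were more than 2-fold lower by value, among them Pvalb (log2 ratio -5.04, q = 0.535 in the authors' deposited table) and Tnnt3 (-3.39, q = 0.471 in the same authors' deposited table). The log2 ratio of Myog, -3.18, lay near this list's median, and that of Myf6 lay beyond all but Pvalb and the joined row of Myh6 and Myh7.

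Genes of myoblasts and fusion went in both directions. Of 17 listed 14 were tested, 3 were called lower and 2 higher (5 and 2 at an unadjusted p under 0.05), with a median log2 ratio of -0.43. Mustn1, a small protein of regenerating muscle and bone, fell 12.8-fold and desmin, Des, fell from 83.3 to 9.75 FPKM per the authors' deposited table. Tmem8c, known as myomaker and needed for myoblast fusion, was at 0.680 FPKM in C1 and listed at 0 in C2 in the authors' deposited table (q = 0.00167). Its call rests on a level under 1 FPKM. When only rows reaching 1 FPKM in a condition were adjusted, Tmem8c fell out and 2 genes of this list were called lower. Igfbp5 rose from 39.6 to 137 FPKM and the Notch ligand Dll1 from 5.63 to 13.3 FPKM per the authors' deposited table. Igfbp5 and Dll1 are made outside muscle too, and which cells made the transcripts of this list, higher or lower, was not tested. Cdh15, the cadherin of myoblasts, had 0.552 against 1.12 FPKM (C1 against C2) per the authors' deposited table and was not called (q = 0.372).

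The muscle acetylcholine receptor and endplate list had 4 tested rows of 9 and 0 calls by Cuffdiff, with 1 lower and 0 higher at an unadjusted p under 0.05. Chrna1, the receptor's alpha subunit and a textbook MyoD family target, had 72.9 against 52.5 FPKM (C1 against C2) per the authors' deposited table (log2 ratio -0.47, q = 0.520). Its partner subunit Chrnb1 had 6.98 against 7.74 FPKM (C1 against C2) per the authors' deposited table and was not called (log2 ratio 0.15). Chrnd had 0.405 against 0.0664 FPKM and Chrng 0.179 against 0.0216 FPKM by the authors' deposited table, and neither was tested. By value 6 of the 9 rows were lower in C2 and 3 higher.

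Targets of MEF2 and of SRF were listed apart. Of 12 MEF2 targets 11 were tested, 5 were called lower and 0 higher (6 and 0 at an unadjusted p under 0.05), with a median log2 ratio of -1.82. The calls were Ckm, which the fibre list also holds, Hrc (-3.21), Myom1 (-2.11), Pgam2 (-1.70) and Nr4a1 (-0.91), and Mb stands in both lists as well. Hrc, Myom1 and Pgam2 are muscle genes. Of the targets known from other tissues, Nr4a1 was called lower, and Klf2 and Jun were not called (log2 ratios 0.02 and -0.04). Of 24 SRF targets 23 were tested, 1 was called higher (the smooth muscle protein Smtn, 0.96) and 2 lower (Cyr61, -1.19, and the tropomyosin Tpm2, -0.84), with a median log2 ratio of -0.04. At an unadjusted p under 0.05 the SRF targets had 6 higher and 3 lower. The actins Actb, Actg1 and Acta2 were not called, with log2 ratios of 0.24, 0.63 and -0.47. The skeletal muscle actin Acta1, which stands in the fibre list and not among these SRF targets, was called lower (log2 ratio -3.68). The medians of the lists thus depend on which muscle genes each was given.

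**Figure D5:**
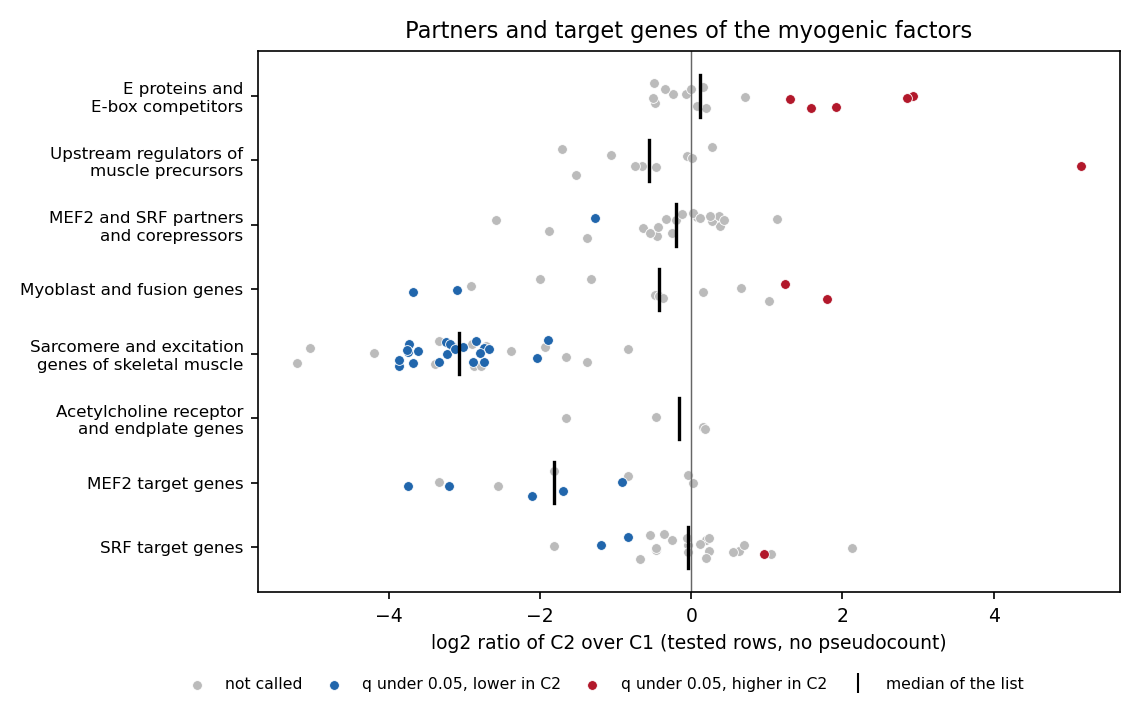
log2 ratios of C2 over C1 for the tested rows of 8 lists of partners and targets, 1 point per row, with the list median as a black bar. Blue points were called lower in C2 and red points higher. All 36 sarcomere and excitation rows lie below 0 with a median of -3.07, while SRF targets centre on -0.04. Tmem8c, at 0 in C2, is not drawn.

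Markers of other cell types were read in the same table. Epithelial markers were called higher for 7 of 9, with summed levels of 640 FPKM in C1 and 1108 FPKM in C2 and 0 markers at 0 in either condition. Fibroblast markers were called lower for 6 of 9 (Col1a1 among them at a log2 ratio of only -0.15), with sums of 4308 and 1657 FPKM and 0 at 0. Of 7 B lymphocyte markers 4 were tested and 3 of them were called lower, with sums of 8.94 and 1.05 FPKM and 0 at 0. All 7 were lower in C2 by value, and the median log2 ratio of those tested was -3.07. Endothelial markers, for cells that also use Mef2c, were called higher for 1 of 9 and lower for 1 of 9 (Cdh5, log2 ratio 0.90, and Tek, -1.53). By value 7 of these 9 were lower in C2, with a median log2 ratio of -0.70, and at an unadjusted p under 0.05 there were 5 lower and 1 higher. Their sums were 130 and 123 FPKM, with Cdh5 going from 21.4 to 39.8 FPKM per the authors' deposited table. Macrophage markers were called higher for 1 of 8 (Cd14) and lower for 0, with sums of 546 and 536 FPKM. The part of any of these cells in the lower values of Mef2c, which B cells also make, or of the other factors was not tested.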

How the data were processed

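Messenger RNA of 5 tumours (10 samples, 2 lanes each) was sequenced from a stranded kit as single reads of 100 bases, per the labels' protocols. Per the series' design text, the authors mapped reads to MGSCv37 with Bowtie and TopHat and took abundance and differential expression from Cufflinks. Versions in the submitters' processing notes are Cufflinks 2.1.1, TopHat2 2.0.8b and CASAVA 1.8.2. The deposited FPKM values, p-values and q-values are 1 per condition, and the unit is read from the Cuffdiff layout. Its test statistic, a score as deposited, supports no result here. The deposited log2 fold differed from the ratio computed here by at most 7.6e-06 over the members with a ratio. The deposited gene counts and p-values of GO terms come from BiNGO, per the file headers.

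Ratios are log2 of C2 over C1 with no pseudocount. Calls are the deposited q under 0.05, and 11286 rows were not tested. Among rows tested and reaching 1 FPKM, the log2 ratio had a median of 0.06. The members and lists were chosen with earlier results of these data known. Each listed symbol took its row of highest mean. All members are named, and in each list up to 4 called genes by absolute ratio or the most abundant where none was called. Other genes were named after their values were seen. Some listed genes are counted but not reported here by name. With 2 values per gene, no likeness of pattern was measured. Adjustments were tested on simulated data. Work used matplotlib 3.10.9, SciPy 1.17.1, pandas 2.3.3, numpy 2.4.6 and Python 3.11.15.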

Additional observations from a re-analysis of the deposited data

How the results depend on the processing

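No paired analysis was possible because abundances exist per condition and not per tumour, and leaving out each replicate was not run for the same reason. The number of members called lower in C2 was 3, and it was 1 at q under 0.01 and with Benjamini-Yekutieli adjustment (Mef2c in each case) and 0 with Bonferroni, where fewer genes pass by construction, against 4 at an unadjusted p under 0.05. A 2-fold minimum left out Mef2a. Adjustment over named rows brought in Myog (0.0497), and the counts were then 1 lower for upstream regulators (from 0), 2 higher for SRF targets (from 1), 23 lower for sarcomere genes (from 22) and 6 lower for MEF2 targets (from 5). At q under 0.01 the calls were 14 lower for sarcomere genes, 0 for MEF2 and SRF partners, 1 higher for myoblast genes, 0 higher and 1 lower for SRF targets, and 1 among neighbouring genes. With Benjamini-Yekutieli they were 14 lower for sarcomere genes, 3 for MEF2 targets and 0 for MEF2 and SRF partners, 0 higher for upstream regulators, 1 higher for myoblast genes, and 0 higher and 1 lower for SRF targets. With a 2-fold minimum SRF targets had 0 higher and 1 lower. A pseudocount of 1 FPKM brought the median log2 ratio to -2.17 for sarcomere genes and -1.19 for MEF2 targets, and that of Myod1 to -0.49 (-1.69 with 0.1 FPKM) and of Myog to -1.60. No called member changed direction under the pseudocounts, centring or the deposited fold.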

Other observations

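The genes beside the factors on their chromosomes were read by the table's coordinates, taking the nearest named and tested row on each side. Of 19 different rows 4 were called, 1 of them Myf6 as the neighbour of Myf5. Among all tested rows 7.12% were called in either direction. Next to Myf6, Lin7a (log2 ratio -0.73, q = 0.550 in the authors' deposited table) and Ptprq (1.03, q = 0.271 in the authors' deposited table) were not called. Beside Mef2a, Lysmd4 and Lrrc28 had log2 ratios of 0.34 and -0.45 and were not called. Beside Mef2c, Cetn3 lay 1707 kb away with a log2 ratio of -0.02, and Mir9-2, 71.1 kb away, was called lower (-1.72, q = 0.0408 in the authors' deposited table). The other called neighbours were Iqgap3, beside Mef2d (1.28), and Klhdc7a, beside Pax7 (3.12), both higher in C2. Mybph, a myosin-binding protein of fibres that lies 54.6 kb from Myog, had a log2 ratio of -2.87 and was not called (q = 0.127 in the authors' deposited table).

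The authors' GO enrichment returned 919 terms, of which 22 have muscle in the name, while 0 of the 28 terms they selected do. Mef2c stands in 9 of the selected terms and Mef2a in 5, among them nervous system development and apoptosis, and Myf6 in 0. Of the 22 muscle terms Mef2c stands in 7, Myf6 in 6 and Mef2a in 0. For skeletal muscle tissue development 8 called genes stand among 72 annotated. The enrichment used a list of 1004 genes against an annotation of 28912 genes, a wider base than the tested rows. The unadjusted hypergeometric p was 0.00345 and the corrected one 0.0173 per the authors' deposited table. All 8 were lower in C2, while of the 9 genes under cardiac muscle tissue development 6 were higher and 3 lower. Of 11 heart muscle markers 5 were tested and Tnnt2 was called higher (log2 ratio 1.45) and 0 lower, with 1 lower at an unadjusted p under 0.05. That lower marker was the joined row of Myh6 and Myh7 (log2 ratio -5.21), which the fibre list also counts. Of 9 markers of melanocytes and neural crest, cells where Pax3 also acts, 3 were tested. Sox10 and Kit were called higher (6.82 and 2.85) and 0 lower (0 at an unadjusted p under 0.05), with Mitf at -0.64. By value 2 of the 9 were higher in C2 and 6 lower, and Tyr, a marker of pigment cells, was listed at 0 in both conditions and Dct, Tyrp1 and Foxd3 in C2.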
